A study of Homo sapiens with 2 samples.

Results

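Long non-coding RNAs (lncRNAs) are transcripts that are not translated into protein, and many start from promoters and enhancers that transcription factors bind. LDB1 is a co-regulator that has no DNA-binding domain of its own. In blood cells it dimerises and joins LMO2, which bridges it to GATA factors on the GATA motif and to TAL1 with its E-protein partner on the E-box. A composite element, in which an E-box remnant lies a short fixed distance from a GATA motif, is the known landing site of the whole complex. To describe where LDB1 met the starts of lncRNA genes, the LDB1 peaks whose midpoint lay within 1000 bp of the transcription start site (TSS) of a lncRNA transcript, and more than 1000 bp from every TSS of a protein-coding gene, were taken from the peak list of NB4 cells, a human line of acute promyelocytic leukemia. There were 458 such lncRNA TSS peaks among 11046 peaks, or 4.15% (3.79 to 4.53%). Position alone chose them, so that peak length, motif content and base composition were free to vary.

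The series held 2 CUT&Tag libraries of NB4 cells. In CUT&Tag an antibody brings a transposase to the target protein, where it inserts sequencing adapters into nearby DNA. The first library was made with an LDB1 antibody and is labelled LDB1 overexpression, and the second was made with IgG from untreated cells, so antibody and treatment cannot be told apart. With 1 library per group there was no replicate and no test between groups. The peaks were given by start, end and length, without height or summit, so the depth behind a peak is unknown. Peak positions hold no expression values, and whether NB4 transcribed any of these lncRNAs was not measured here. Each interval is a 95% interval that covers counting error in a single library.

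The composites of the 5 peaks whose midpoint was closest to a lncRNA TSS are shown first. They hold an E-box remnant (CTG) and a GATA motif beside a start of transcription. A full E-box was not required, and not every window shown has one. Each line gives the 200 bp around the peak midpoint in hg38, 5′ to 3′ on the strand that reads the composite forward, and the capitals mark the composite (CTG, then 7 or 8 bases of any kind, then a GATA motif, which is GATA after A or T and before A or G).
UCA1, chr19:15828857-15829056, plus strand: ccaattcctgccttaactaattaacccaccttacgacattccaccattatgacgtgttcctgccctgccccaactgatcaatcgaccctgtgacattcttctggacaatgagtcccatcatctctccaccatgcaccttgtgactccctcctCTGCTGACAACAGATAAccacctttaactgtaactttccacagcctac
ENSG00000232884, chr21:14762903-14763102, plus strand: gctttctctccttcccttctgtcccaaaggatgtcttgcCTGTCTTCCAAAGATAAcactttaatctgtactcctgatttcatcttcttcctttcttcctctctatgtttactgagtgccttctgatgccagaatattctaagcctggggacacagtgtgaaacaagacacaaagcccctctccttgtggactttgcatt
LINC02772, chr1:157273645-157273844, plus strand: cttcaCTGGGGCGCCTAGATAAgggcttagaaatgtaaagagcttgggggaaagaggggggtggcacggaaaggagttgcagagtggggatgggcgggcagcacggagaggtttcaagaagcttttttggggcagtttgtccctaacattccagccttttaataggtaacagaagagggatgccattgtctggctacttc
ENSG00000227706, chr6:67889107-67889306, minus strand: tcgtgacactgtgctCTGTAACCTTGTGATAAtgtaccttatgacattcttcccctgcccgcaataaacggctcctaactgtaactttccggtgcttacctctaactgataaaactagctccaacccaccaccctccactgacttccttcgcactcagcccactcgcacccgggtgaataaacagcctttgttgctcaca
LINC01215, chr3:108125744-108125943, plus strand: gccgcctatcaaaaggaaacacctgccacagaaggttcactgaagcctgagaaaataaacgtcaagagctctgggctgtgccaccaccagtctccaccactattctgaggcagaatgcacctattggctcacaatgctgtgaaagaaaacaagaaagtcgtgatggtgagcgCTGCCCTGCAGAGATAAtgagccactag

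UCA1 is a lncRNA first described in bladder cancer, and its peak of 696 bp had its midpoint 1 bp upstream of an annotated TSS. LINC02772 had a peak of 756 bp centred 15 bp upstream, and its composite had a gap of 8 bases. The peak of LINC01215 spanned 710 bp with its midpoint 23 bp downstream of the TSS. LINC00299, the lncRNA neighbour of the helix-loop-helix inhibitor gene ID2, had a peak of 681 bp centred 64 bp upstream. Among 36 pairs of the 9 windows examined in this way, UCA1 and ENSG00000227706 shared the longest run, taactgtaactttcc, of 15 bases, whereas the next pair shared 10 and the median pair 8. The central 31 bases of the UCA1 peak had 3 copies in hg38, so reads of this peak may come from more than 1 place.

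The other peaks among the 10 composite peaks closest to a TSS belonged to ENSG00000232884 (12 bp downstream), ENSG00000227706 (17 bp downstream), LINC02043 (59 bp upstream), ENSG00000251434 (64 bp upstream), XACT (64 bp downstream) and LINC03047 (92 bp downstream). XACT is a lncRNA known from human pluripotent cells, and its central bases had 33 copies. In all, 41 lncRNA TSS peaks (8.95%, 6.67 to 11.9%) held a composite in the central 200 bp, each of them a single time. The gap was 7 bases in 16 and 8 bases in 25. The composite ran with the lncRNA in 20 and against it in 21, and it lay upstream of the nearest TSS in 21 and downstream in 20. The counts were close to even for strand and for side. Of the 41 composites, 23 lay within 200 bp of the TSS, and 38 of these peaks had central bases found once in hg38.

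To see how many lncRNA genes were reached, each gene was counted with a lncRNA TSS peak when any of its TSSs lay within 1000 bp of a peak midpoint. GENCODE release 44 lists 18866 lncRNA genes, and 15538 could be counted, having a TSS over 1000 bp from the protein-coding ones or a lncRNA TSS peak. Results showed that 418 of them, 2.69%, had a lncRNA TSS peak. Of these, 9 were counted only through their peak, and without them the share was 409 of 15529 (2.63%). By the nearest TSS, 458 peaks fell to 397 genes, of which 351 had 1 peak, 39 had 2 and 7 had 3 or more. A further 163 peaks within 1000 bp of a lncRNA TSS were also within 1000 bp of a protein-coding TSS and were left out by definition. The nearest gene had no symbol for 287 peaks (62.7%, 58.1 to 67.0%). Counted by gene, 273 of the 418 genes with a peak had no symbol, beside 70.6% of all countable lncRNA genes.

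The share of genes with a peak rose with the number of annotated TSSs. It was 2.02% (1.77 to 2.31%) of genes with 1 TSS, 3.12% of those with 2 to 5, 5.50% of those with 6 to 20, and 10.5% (6.82 to 15.8%) of those with over 20. A gene with more starts covers more sequence, and this stands beside each gene list below. By type of name, microRNA host genes had a peak in 6 of 78 (7.69%, 3.57 to 15.8%), LINC genes in 72 of 2230 (3.23%, 2.57 to 4.05%), antisense genes in 31 of 1214 (2.55%), divergent genes in 3 of 159 (1.89%) and genes with other symbols in 32 of 723 (4.43%, 3.15 to 6.18%). Genes without a symbol had a peak in 273 of 10976 (2.49%, 2.21 to 2.80%). The intervals of the microRNA hosts and of the other symbols lay above the 2.69% of all genes. Those of the LINC, antisense and divergent genes and of the genes without a symbol held it.

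To compare the placement with that at protein-coding promoters, the distance from midpoint to TSS was set beside that of the 1514 protein-coding TSS peaks, which lay within 1000 bp of a protein-coding TSS. The median distance was 253 bp at lncRNA and 249.5 bp at protein-coding TSSs. Both classes were cut at 1000 bp by definition, which bounds the distances compared here. The midpoint was within 200 bp of the TSS in 42.1% (37.7 to 46.7%) of lncRNA TSS peaks and in 43.8% (41.3 to 46.3%) of protein-coding TSS peaks. It lay downstream of the TSS in 50.9% (46.3 to 55.4%) and 48.5% (46.0 to 51.1%). The intervals overlapped for both shares, and both profiles were highest at the TSS. The peak itself covered a lncRNA TSS in 244 of 458 (53.3%, 48.7 to 57.8%). Of the nearest transcripts, 60.5% were the canonical transcript of the gene and 16.4% had a single exon.

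**Figure D1:**
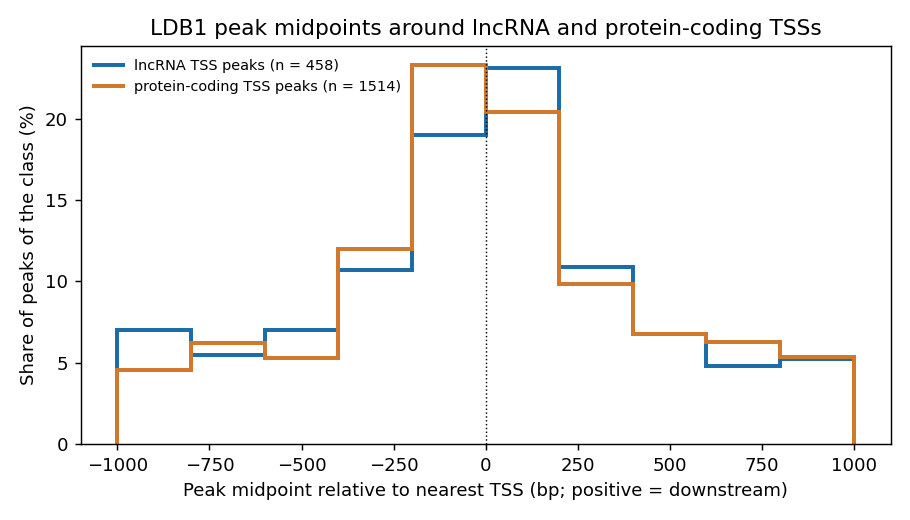
Share of peaks (%) by the signed distance (bp) of the peak midpoint from the nearest TSS, in steps of 200 bp, for 458 lncRNA TSS peaks and 1514 protein-coding TSS peaks. Both classes are highest in the steps on either side of the TSS, with 87 and 106 of the lncRNA TSS peaks there.

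The sequence within 1000 bp of lncRNA TSSs and away from protein-coding TSSs comes to 42.4 Mb, and LDB1 peaks were found there at 10.8 per Mb (9.83 to 11.8). The interval of the density was 11.4 to 12.6 per Mb around protein-coding TSSs and 3.11 to 3.24 per Mb in the rest of the genome. The intervals at lncRNA and protein-coding starts overlapped, and both lay above that of the rest of the genome. Chromosome 21 had the highest share of its peaks at lncRNA TSSs (9 of 107, 8.41%), followed by chromosome 8 (34 of 490, 6.94%), and chromosome 10 had the lowest (7 of 501, 1.40%). Of the 34 on chromosome 8, 10 lay within the single gene PVT1. The sequence near lncRNA TSSs was not set against these shares by chromosome.

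Lengths ran from 229 to 3418 bp with a median of 480 bp (446 to 531). The medians were 467 bp (451 to 486) for protein-coding TSS peaks and 448 bp (441 to 454) for the 9074 peaks over 1000 bp from both kinds of TSS, called distal peaks below. Peaks of 1000 bp or more made up 14.0% of the lncRNA TSS peaks, which was 4.02 points (1.08 to 7.55) above the distal peaks and 1.16 points (-2.22 to 4.98) above the protein-coding TSS peaks. Another peak lay within 10 kb of 62.0% of lncRNA TSS peaks, 10.6 points (5.93 to 15.0) more than of distal peaks and 7.52 points (2.35 to 12.5) more than of protein-coding TSS peaks.

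The longest of the lncRNA TSS peaks spanned 3418 bp at ENSG00000289461, 19871 bp from the nearest protein-coding TSS, that of SLC25A37, the mitochondrial iron importer mitoferrin of red cell precursors. The next were those of CROCCP2 with 3177 bp, ENSG00000230615 with 3138 bp, ENSG00000289933 with 2882 bp and ENSG00000257359 with 2808 bp. ENSG00000230615 lay 4459 bp from the TSS of SLC6A9, a glycine transporter gene, and had 2 more peaks of 802 and 1034 bp. The peaks at ENSG00000289461 and ENSG00000230615 held a GATA motif in their central 200 bp, and those at CROCCP2, ENSG00000289933 and ENSG00000257359 did not.

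Base composition lay between the other classes. GC content in the central 200 bp was 54.0% ± 7.80 (SD over peaks, n = 458), against 58.5% ± 9.02 at protein-coding TSS peaks and 51.3% ± 6.72 at distal peaks. The flanks of the lncRNA TSS peaks, windows of 200 bp centred 1000 bp to either side, had 47.8%. Windows with 60% GC or more made up 22.9% of lncRNA TSS peaks. The difference was -21.3 points (-25.7 to -16.5) from protein-coding TSS peaks and 11.5 points (7.83 to 15.6) from distal peaks. The observed-to-expected ratio of CpG, which is high in CpG island promoters, averaged 0.303, against 0.413 and 0.224. The central 31 bases had further copies in hg38 for 57 lncRNA TSS peaks (12.4%), a share 7.89 points (4.93 to 11.4) above that of protein-coding TSS peaks and 0.808 points (-1.99 to 4.21) above that of distal peaks.

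Motifs were searched on both strands of the central 200 bp. The GATA motif was found in 181 of 458 lncRNA TSS peaks, or 39.5% (35.1 to 44.1%), and in 28.3% of their flanks, a difference of 11.2 points (5.94 to 16.6). Protein-coding TSS peaks held it in 35.3% and distal peaks in 49.5%. The share at lncRNA TSSs was thus lower than at distal peaks, with a difference of -9.94 points (-14.4 to -5.28). Its difference from the protein-coding TSS peaks, 4.25 points (-0.759 to 9.37), had an interval that includes 0. Within 4 classes of GC content the same difference was -3.37 points. A match is a run of letters and not a measured binding site. Statements below on the motifs of single peaks refer to the central 200 bp. Over the full length of the lncRNA TSS peaks, a GATA motif was found in 65.9% and a composite in 19.2%. Over full length, GATA was found in 59.8% of protein-coding TSS peaks and 73.6% of distal peaks.

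The composite, which always contains a GATA motif, had the largest ratio to the flanks among the motifs searched at lncRNA TSS peaks, with 8.95% against 1.31%, or 6.83 times. The ratio was 7.14 at protein-coding TSS peaks and 6.81 at distal peaks. Against distal peaks, of which 11.5% held a composite, the difference of the lncRNA TSS peaks had an interval from -4.88 to 0.537 points, which includes 0. The E-box CAGNTG, which can overlap the composite, was found in 50.9% of lncRNA TSS peaks and 43.7% of flanks, and it differed from distal peaks by -1.31 points (-5.99 to 3.36). GATA and E-box stood together in 17.9% (14.7 to 21.7%) of lncRNA TSS peaks and in 25.8% (24.9 to 26.7%) of distal peaks. The share at protein-coding TSS peaks was 17.7% (15.9 to 19.7%), close to that at lncRNA TSSs.

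The motifs of other blood factors followed. RUNX factors are core-binding factors of blood stem and progenitor cells, and their motif (TGTGGT or TGCGGT) was in 21.6% of lncRNA TSS peaks and 16.8% of flanks, 0.963 points (-2.66 to 5.04) from distal peaks. The AP-1 motif of JUN and FOS proteins (TGACTCA or TGAGTCA) was in 9.39% (43 peaks) and in 4.69% of flanks, and it was -0.475 points (-2.90 to 2.60) from distal peaks. The ETS motif (CCGGAAG or ACGGAAG) was in 3.49% (16 peaks) against 1.94% of distal peaks, a difference of 1.55 points (0.188 to 3.68). A GC-rich box bound by KLF and SP factors (CCNCNCCC) was in 37.8% and in 22.7% of flanks. It was 8.78 points (4.36 to 13.4) above distal peaks and differed from protein-coding TSS peaks by -10.7 points (-15.7 to -5.53). GC content also differed between these classes, and its part in the ETS and KLF differences was not tested. The C/EBP motif (TTACNNAA or TTGCNNAA) was in 11.6% of lncRNA TSS peaks and 15.2% of their flanks, a difference of -3.60 points (-7.20 to 0.313). None of GATA, E-box, RUNX, ETS and AP-1 was found in 82 lncRNA TSS peaks (17.9%), against 25.4% of protein-coding TSS peaks and 17.2% of distal peaks.

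**Figure D2:**
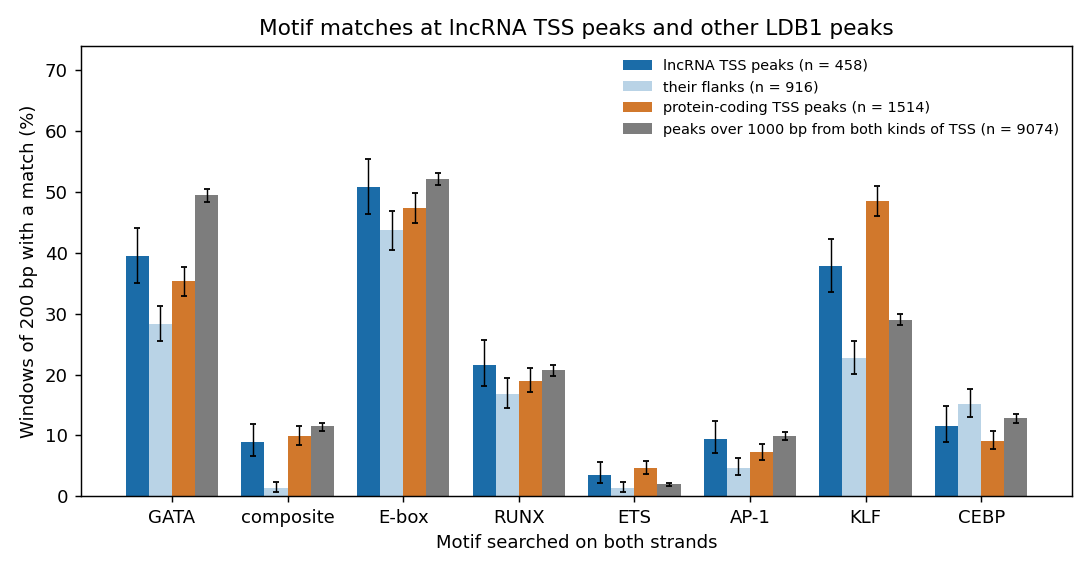
Share of 200 bp windows (%) with at least 1 match of each motif, with 95% Wilson intervals, for 458 lncRNA TSS peaks, their 916 flank windows, 1514 protein-coding TSS peaks and 9074 peaks over 1000 bp from both kinds of TSS. The GATA bar of the lncRNA TSS peaks (39.5%) stands between their flanks (28.3%) and the distal peaks (49.5%), and the composite is rare in the flanks (1.31%).

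GATA content among lncRNA TSS peaks moved with base composition. It was 54.5% (40.1 to 68.3%) of 44 peaks under 45% GC, 51.5% of 227 peaks from 45 to under 55%, 25.4% of 138 peaks from 55 to under 65%, and 10.2% (4.44 to 21.8%) of 49 peaks at 65% or more. The lowest and highest classes differed by 44.3 points (25.8 to 59.3). Within the same GC classes the lncRNA TSS peaks differed from distal peaks by -8.57 (-23.3 to 5.40), -2.64 (-9.26 to 3.92), -8.65 (-15.5 to -0.561) and -7.95 points (-15.5 to 4.28), in order of rising GC. Weighted over the 4 classes, the difference was -5.59 points, compared with -9.94 points without classes. Against protein-coding TSS peaks the values by class were -6.13 (-23.4 to 11.1), 0.00676 (-7.91 to 7.89), -8.32 (-15.9 to 0.383) and -2.62 points (-9.46 to 9.31), with intervals that all include 0. How much of the lower GATA share belongs to base composition was not tested beyond these values.

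**Figure D3:**
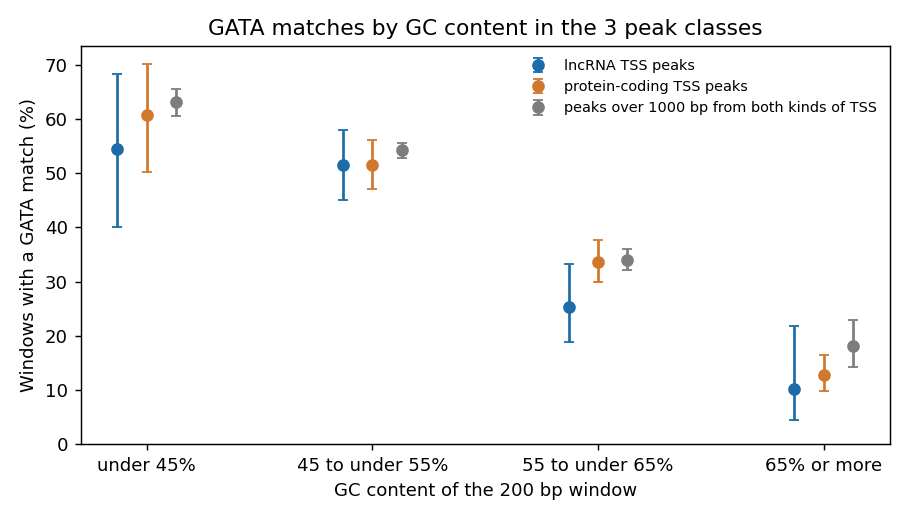
Share of windows (%) with a GATA motif by the GC content of the 200 bp window, with 95% Wilson intervals, in lncRNA TSS, protein-coding TSS and distal peaks. In each class the share falls with GC content, from 54.5% to 10.2% at lncRNA TSSs.

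Other features split the lncRNA TSS peaks less. GATA was found in 39.4% of peaks centred within 200 bp of the TSS and in 44.4% of those over 500 bp away, a difference of -5.07 points (-15.8 to 5.67). For peaks inside and outside protein-coding genes it was 42.6% and 38.7%, with a difference of 3.92 points (-6.62 to 14.8). Peaks with a protein-coding TSS 1 to 3 kb away held GATA in 24.4%, and those over 100 kb away in 44.7%, which is 20.2 points more (3.05 to 34.6). Mean GC content moved with this split, from 57.2% to 51.4%, and its part in the difference was not tested. The composite followed peak length. It was found in 2.91% (0.995 to 8.22%) of 103 peaks up to 314 bp, the lower quartile of all peaks, in 8.14% of 221 peaks between the quartiles, and in 14.9% (9.87 to 21.9%) of 134 peaks over 666 bp, the upper quartile. The interval of the difference between the longest and the shortest class was 4.69 to 19.3 points. The same order was found outside the lncRNA TSS peaks, so it is not particular to them. Distal peaks held a composite in 6.41% of the shortest, 12.9% of the middle and 13.7% of the longest length class. Protein-coding TSS peaks held it in 4.07% of the shortest and 11.1% of the middle class. Their share was highest in the longest class, with an interval of 10.1 to 16.6%.

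**Figure D4:**
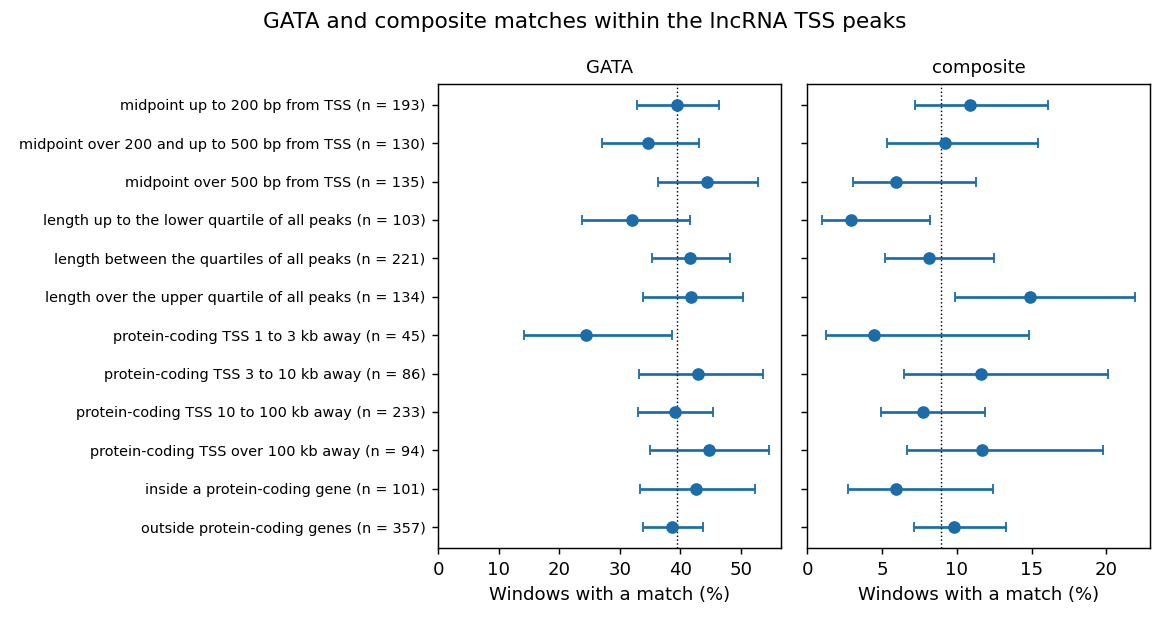
Share of lncRNA TSS peaks (%) with a GATA motif (left) and with a composite (right) by distance to the lncRNA TSS, peak length, distance to the nearest protein-coding TSS and position relative to protein-coding genes, with 95% Wilson intervals and the share of all 458 peaks as a dotted line. The composite is lowest in the shortest peaks (2.91%) and highest in the longest (14.9%).

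To further place the peaks relative to protein-coding genes, gene bodies and strands were compared. Of the lncRNA TSS peaks, 101 (22.1%, 18.5 to 26.1%) lay inside a protein-coding gene, a difference of -28.2 points (-31.9 to -24.1) from distal peaks. In 85 of them the gene was on the strand opposite to the lncRNA, in 13 on the same strand, and in 3 on both. The same order is found in the annotation alone. Of the annotated lncRNA TSSs over 1000 bp from the protein-coding ones, 20.1% lay inside a protein-coding gene, a share within the interval of the peaks. In 75.2% of these TSSs the gene was on the opposite strand, against 84.2% (75.8 to 90.0%) of the peaks inside genes, where the lower bound lay just above the annotation. The nearest protein-coding TSS was at a median of 29743.5 bp, against 15947 bp for distal peaks, and over 100 kb away for 20.5% (17.1 to 24.5%) against 11.0% (10.4 to 11.7%).

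Among lncRNA genes known from blood and leukemia, 39 had been listed, and 36 were annotated under that name. Of 29 that could be counted, 11 had a lncRNA TSS peak (37.9%, beside 2.69% of all genes): CASC15, CCDC26, CYTOR, HOXB-AS1, LINC-PINT, LINC00853, LUCAT1, MIR223HG, MIR4435-2HG, PVT1 and UCA1. The list was made with earlier results of these peaks known and holds genes with many annotated TSSs, 132 in PVT1, 77 in CASC15 and 76 in CCDC26, so the share is a description. NEAT1, MALAT1, HOTAIRM1, CRNDE and NORAD had no lncRNA TSS peak. Of 28 listed host genes of small nucleolar RNAs, 23 could be counted, among them GAS5, SNHG1, SNHG12, DANCR and ZFAS1. A lncRNA TSS peak was found at 0 of these 23, and the interval of 0 to 14.3% holds the 2.69% of all genes. Of the lncRNAs that the study took as candidates, DLGAP1-AS1 had a peak of 336 bp centred 120 bp upstream of a TSS, and NEAT1 had none. The paper chose its candidates by other measures: ChIP-Seq of LDB1 and other factors, altered expression after LDB1 knockdown, and super-enhancers.

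HOXB-AS1, an antisense lncRNA of the HOXB cluster, had a peak of 378 bp, 348 bp downstream of the TSS and 1931 bp from the TSS of HOXB2, with a GATA motif. LUCAT1, a lncRNA induced by stress and inflammation, had a peak of 564 bp centred 68 bp upstream of its start. The central 200 bp of this peak held no GATA motif. LINC00853 shared its peak of 460 bp with CYP4A22-AS1 on the other strand, and the nearest protein-coding gene was PDZK1IP1, the neighbour of TAL1, at 5819 bp. LINC-PINT, a lncRNA induced by p53, had a peak of 234 bp centred 10 bp upstream of a TSS. CCDC26, a lncRNA gene at a locus altered in myeloid leukemia, had 2 peaks of 276 and 326 bp. Neither held a GATA motif in the central 200 bp. CASC15 had 1 peak of 261 bp with a GATA motif.

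PVT1, the lncRNA gene beside MYC that is amplified with it in many cancers, had the most lncRNA TSS peaks, 9, with lengths of 490, 925, 501, 1294, 661, 753, 974, 528 and 1610 bp. They stood in groups. From the first TSS of the gene, 1 lay at 59961 bp, 2 at 97060 and 98402 bp, 1 at 117009 bp and 5 between 244201 and 254381 bp. Only 2 of the 9, those at 97060 and 98402 bp, held a GATA motif in the central 200 bp. The former also held a composite there. The peak at 59961 bp held an AP-1 motif and was centred 13 bp upstream of a TSS. Over the whole gene of 392576 bp there were 26 LDB1 peaks, including 1 more lncRNA TSS peak, of 699 bp, at LINC02912. The peak nearest to the first TSS lay 6177 bp downstream of it, so the first start of PVT1 itself had none within 1000 bp.

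CYTOR, a regulator of the cytoskeleton and cell growth, came next with 5 lncRNA TSS peaks of 234, 1251, 545, 297 and 490 bp among 13 over the gene. MIR4435-2HG, a near copy of CYTOR elsewhere on chromosome 2 that controls the lifespan of myeloid cells, had 2 peaks of 717 and 448 bp among 15. The central bases of all 5 CYTOR peaks and of both MIR4435-2HG peaks occurred 2 times in hg38, so that reads of the copies may not be separable, and these peaks are uncertain. ENSG00000230615, ENSG00000288925, LINC01132 and PRKAR2B-AS1 were among the genes with 3 each. The 3 peaks of LINC01132 measured 261, 391 and 412 bp and lay between 113433 and 115521 bp from the TSS of IRF2BP2, a transcriptional repressor gene. Those of PRKAR2B-AS1, of 524, 402 and 367 bp, lay inside PRKAR2B on the opposite strand, and 2 of them held a GATA motif.

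**Figure D5:**
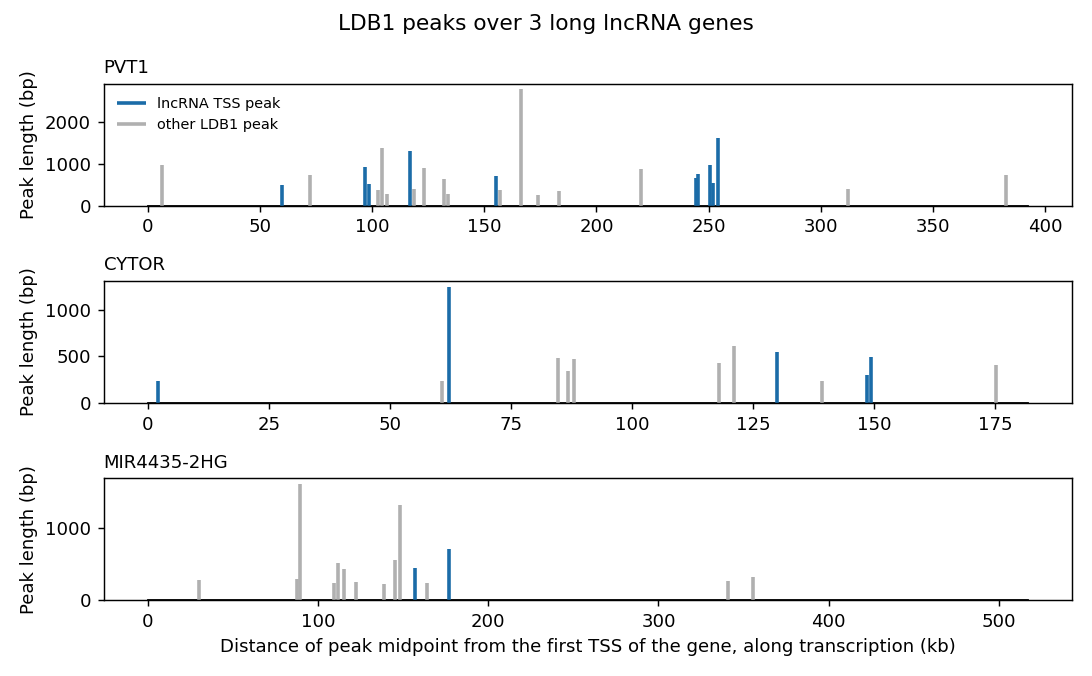
LDB1 peaks over PVT1, CYTOR and MIR4435-2HG by distance (kb) of the midpoint from the first TSS along transcription, with the height of a line giving the peak length (bp). Blue lines are lncRNA TSS peaks (10 in PVT1 with that of LINC02912, 5 in CYTOR and 2 in MIR4435-2HG) and grey lines are other peaks; the black line is the gene.

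The 6 microRNA host genes with a lncRNA TSS peak were MIR181A2HG, MIR223HG, MIR22HG, MIR29B2CHG, MIR3681HG and MIR4435-2HG. MicroRNAs are short RNAs that silence messenger RNAs paired with their seed, bases 2 to 8. The mature sequences of the hosted microRNAs best known in blood, as given by RefSeq, are shown here because the peak lies near an annotated start of their host, and the capitals mark the seed.
hsa-miR-223-3p: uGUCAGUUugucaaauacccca
hsa-miR-181a-5p: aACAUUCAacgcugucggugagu
hsa-miR-29b-3p: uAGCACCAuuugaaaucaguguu
hsa-miR-29c-3p: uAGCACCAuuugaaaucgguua

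MiR-223 is a hallmark of the myeloid lineage and tempers neutrophil production. Its host MIR223HG had a peak of 361 bp centred 36 bp downstream of a TSS, and the hairpin lay 3373 bp further along. The peak of MIR181A2HG, host of miR-181a, a microRNA of lymphocyte development, was 265 bp long, 25 bp downstream of a TSS and 33986 bp from the hairpin. MiR-29b and miR-29c share their seed, and their host MIR29B2CHG had a peak of 241 bp with its midpoint 47 bp downstream of a TSS, 3527 and 4111 bp before the hairpins. MIR22HG had a peak of 305 bp at 986 bp downstream of the TSS, 1303 bp from that of WDR81. None of these 4 peaks held a GATA motif in the central 200 bp. MIR3681HG had a peak of 398 bp centred 18 bp downstream of a TSS and 92648 bp from the hairpin. Its central 200 bp held no GATA motif either. A further lncRNA TSS peak at MIR3681HG, of 498 bp and closest to a TSS of ENSG00000290030, did hold a GATA motif. Both peaks of MIR4435-2HG held one as well.

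Protein-coding genes nearest to the lncRNA TSS peaks were compared with lists of blood genes. Of 80 listed blood regulators, 8 were the nearest gene of 23 lncRNA TSS peaks (5.02%, 3.37 to 7.42%). A listed regulator was nearest to 2.44% (2.14 to 2.77%) of distal peaks and to 1.92% of protein-coding TSS peaks. MYC alone accounted for 10 of the 23, all within PVT1 and LINC02912 at 115414 to 309834 bp from its TSS. These peaks share their locus, while the interval counts each peak as separate, so no excess over distal peaks is read from the 5.02%. The share without these peaks is not given. IRF2BP2 had 4, at 100012 to 115521 bp from its TSS, and ID2 had 3, at 133901 to 354284 bp. CEBPB had 2, at 101853 and 107964 bp. CBFA2T3, a corepressor gene of the ETO family that joins the LDB1 complex in red cells, had 1 peak of 1928 bp at 5904 bp, at ENSG00000259989. JUN, MEF2C and TCF4 had 1 each, at 101066, 514202 and 109485 bp.

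Of 38 listed red cell genes, 4 were nearest to 6 lncRNA TSS peaks (1.31%, 0.602 to 2.83%), against 0.948% of distal and 2.38% of protein-coding TSS peaks. SLC4A1, the anion exchanger of the red cell membrane, had 2 of them at ENSG00000285486, of 1033 and 698 bp, at 12122 and 13557 bp from its TSS, and the second held a GATA motif and a composite. SLC25A37 also had 2, of 1240 and 3418 bp. FECH, the last enzyme of heme synthesis, had 1 of 312 bp at 1656 bp. None of 30 listed granulocyte genes was nearest to a lncRNA TSS peak (upper limit of the interval 0.832%), with 0.198% of distal peaks.

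The limits of 1000 bp cut through peaks of similar kind. Just inside the lncRNA limit were peaks of BTG2-DT at 1000 bp, ENSG00000289268 at 997 bp and ENSG00000288925 at 992 bp, and just outside were peaks at 1002, 1006 and 1007 bp from GLUD1P2, GLYCTK-AS1 and DPH5-DT. Closest to the protein-coding limit were peaks of SMARCA5-AS1, ENSG00000250310 and DNAAF3-AS1, at 1086, 1092 and 1194 bp from a protein-coding TSS. Just excluded were those of UBE2H-DT, ENSG00000286011 and CNPY2-AS1, at 965, 948 and 931 bp.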

How the data were processed

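NB4 cells were profiled by CUT&Tag in 1 library with an antibody to LDB1 and 1 with IgG. Per the study's methods, the authors aligned reads to hg38 with Bowtie2 (2.4.4 in the submitters' processing notes) and called peaks with MACS3 (3.0) on paired-end fragments at a q-value limit of 0.01. Whether IgG served as control of the calling, and whether duplicates or ambiguous reads were removed, is not given in the sources used here, and peaks called without a control can include open or repeated sequence. The deposited values were peak starts, ends and lengths in bp, counted from 1. No IgG peaks were analysed here.

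TSSs came from GENCODE release 44, in hg38, and microRNA sequences from RefSeq. Shares have Wilson intervals, differences of shares Newcombe intervals and medians binomial intervals. Motifs were consensus strings in 200 bp windows, and 13.4% of the flank windows overlapped a peak. Copies of the central 31 bases were counted in hg38. The peaks, gene lists and motifs were chosen with earlier results of these data known. Genes named were those of the lncRNA lists with a peak and up to 5 without, the 10 composite peaks closest to a TSS, the 5 longest peaks, the 5 genes with most peaks (here 7 with ties), microRNA hosts, and listed neighbours, and some genes under this rule are not reported here. The KLF and C/EBP motifs and the microRNA hosts were added after the values were seen. Scripts were tested on simulated data. Alternatives changed the TSS window, the transcripts, the peak position, the peak list and the sequence window. The work used SciPy 1.17.1, pandas 2.3.3 and numpy 2.4.6 under Python 3.11.15, with plots from matplotlib 3.10.9.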

Additional observations from a re-analysis of the deposited data

How the results depend on the processing

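Of 90 alternative values for 14 results, 75 stayed within the interval of the reported value (for the number of peaks, within 1.5 times) and 15 moved out of it. A window of 2000 bp around the lncRNA TSS gave 739 peaks, of which 33.2% covered a lncRNA TSS, and a window of 500 bp raised that share to 72.4%. Counting a peak by any of its bases gave 45.6%. With only the peaks longer than the median of all peaks there were 245 lncRNA TSS peaks, with a median length of 696 bp, a composite in 13.5% and a TSS covered in 69.0%, and the length follows from this choice. A sequence window of 100 bp, which has less room for a match, gave 23.8% for GATA, 5.46% for the composite, 29.7% for the E-box, 11.1% for RUNX and 5.24% for AP-1. With canonical transcripts alone the GC content was 54.7%. The difference in GATA share from distal peaks, whose alternatives were chosen after seeing the data, ranged from -12.9 to -5.59 points. That from protein-coding TSS peaks, 4.25 points with an interval including 0, was -3.37 points within 4 GC classes, also chosen after seeing the data. No paired analysis was possible because each antibody had 1 library. Without peak heights or read counts, a weak peak could not be told from a strong one.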
